A study of Mus musculus with 77 samples.

Results

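The Dlk1-Dio3 region of mouse chromosome 12 carries a large imprinted cluster of miRNA genes, and 55 of the 566 mouse miRNA probes in the deposited miRNA table belonged to it. Members were taken by name, from a list of the cluster's miRNA numbers, with any arm or letter accepted unless one was given. All 43 numbers of the list had at least 1 probe, and no member shared a probe with another miRNA. The list rests on names alone and not on measured values. Of the 55 members, 20 have probes that name the arm of the hairpin and 35 have probes that do not.

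miRNAs are short RNAs that are cut from hairpin precursors and guide silencing of mRNAs, mainly through pairing of the seed, the bases near the 5′ end. The Dlk1-Dio3 miRNAs lie within long non-coding transcripts (Meg3, Rian, Mirg and the transcript opposite the retrotransposon-like gene Rtl1) that are made from the maternally inherited chromosome, while the protein-coding genes Dlk1, Rtl1 and Dio3 are expressed from the paternal one. In adult mice the cluster is known for its expression in brain, and miR-134, one of its best known members, limits the size of dendritic spines in cultured rat hippocampal neurons.

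The series compared microglia, the resident macrophages of the central nervous system, with immune and neural cells. miRNAs were measured in 36 libraries of cells from C57BL/6 mice with NanoString nCounter, in which each miRNA molecule is tagged with a fluorescent barcode and counted without amplification. The neural set held 6 cell types with 2 libraries each, namely primary neurons of the hippocampus and of the cortex, adult oligodendrocytes, adult astrocytes, microglia, and red pulp macrophages of the spleen. The immune set held adult microglia from 7 sites (brain, cortex, hippocampus, cerebellum, olfactory bulb, eyes and spinal cord), macrophages from 7 organs (spleen, gut, heart, liver, muscle, lung and kidney), 4 populations sorted by CD11b and Ly6C (Ly6C low and Hi, from spleen and from bone marrow), 4 spleen lymphocyte populations (NK1.1 NK cells, B220 B cells, CD3/CD4 T cells and CD4 T reg from Foxp3 spleen), and 1 library each of CD11b/CD11c dendritic cells and Ly6G neutrophils. No genetic change or treatment is named for these libraries. Neither the age and culture time of the neurons nor the number of animals behind a library is given in the sources used here. Nothing says that 2 libraries of a neural group came from separate animals, so neural p-values measure the spread between libraries, which may be technical. In the immune set the libraries of a group are different organs, sites or sorted populations. Its p-values therefore measure the spread between those, and not between repeats of the same cells.

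Of the 55 members, 52 matched 43 hairpins in RefSeq (mouse build GRCm38.p6), all on the plus strand of chromosome 12 within chr12:109571990-109743795, a stretch of 171.7 kb from the start of the first to the start of the last hairpin. The remaining members were miR-544, miR-666-3p and miR-666-5p. By position, 13 members came from 9 proximal hairpins (up to miR-136, 23.3 kb from the first), 2 from the middle (miR-341 and miR-370) and 37 from 32 distal hairpins (miR-379 to miR-410, 137.1 to 171.7 kb). The mature sequences below, from RefSeq, belong to the members whose levels set the results apart, and the capitals mark the seed (bases 2 to 8). Where the probe names no arm, both arms are shown, since the files do not say which one was counted.
miR-376a-5p: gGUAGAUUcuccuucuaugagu
miR-376a-3p: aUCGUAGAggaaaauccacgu
miR-377-5p: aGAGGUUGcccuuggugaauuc
miR-377-3p: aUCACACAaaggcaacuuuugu
miR-136-5p: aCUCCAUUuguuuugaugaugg
miR-136-3p: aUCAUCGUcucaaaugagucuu
miR-382-5p: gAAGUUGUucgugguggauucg
miR-382-3p: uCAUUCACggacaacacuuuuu
miR-543-5p: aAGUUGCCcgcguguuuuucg
miR-543-3p: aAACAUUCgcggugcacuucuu
miR-380-3p: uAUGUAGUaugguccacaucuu

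The miR-376a hairpin lies at chr12:109723781-109723848 and the miR-377 hairpin at chr12:109740510-109740577. Both belong to the distal section. The closest relative of miR-376a with both arms in the table is miR-376b, and the pair is shown because 1 of the differences falls in the seed.
miR-376b-5p: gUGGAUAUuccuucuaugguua
miR-376b-3p: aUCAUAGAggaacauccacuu
miR-376c-5p: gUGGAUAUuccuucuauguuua
Counted from the 5′ end, with the miR-376b base first, the 3p arms of miR-376b and miR-376a differ at 3 of 21 bases (A4G, C13A and U20G). Among the mature sequences found for the 52 members, which did not include miR-376c-3p, miR-485-5p, miR-487b-3p and miR-539-3p, 3 seeds were shared, each by 2 members: miR-376b-5p with miR-376c-5p (UGGAUAU), miR-379-3p with miR-411-3p (AUGUAAC), and miR-410-5p with miR-494-5p (GGUUGUC). The 5p arms of miR-376c and miR-376b differ at 1 of 22 bases (U19G, with the miR-376c base first).

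The deposited neural values are scaled barcode counts. The counts behind them were recovered from the step between values, and library totals ran from 3699 to 20533 counts in the neural set and from 1741 to 75642 in the immune set. A probe was called above background in a library when it exceeded the mean plus 2 SD of that library's 33 viral probes, which have no mouse target. Primary hippocampal neurons 1 stood apart from the other neural libraries. It had the lowest neural total (3699 counts), 1 count was worth a score of 15.7, its background limit was 259 against 51.9 to 113 elsewhere, and its correlation with each other neural library (across miRNAs, log2 scale) was 0.18 to 0.34. The other neural libraries each had a best match of 0.68 to 0.87. The libraries were also checked against miRNAs that mark cell types. The neuronal miR-124 was above the limit in primary cortical neurons 1 (139) and primary hippocampal neurons 2 (331), but not in primary cortical neurons 2 (30) or primary hippocampal neurons 1 (16), so this marker was at background in 2 of the 4 neuron libraries. Of 11 neuronal marker probes, 8 were above the limit in primary hippocampal neurons 2, 4 in primary cortical neurons 1, and 1 in each of the other neuron libraries. Both astrocyte libraries had miR-124 above the limit too (101 and 111), with 3 and 4 of the 11 neuronal probes, and the endothelial miR-126-3p at 394 and 255. None of the astrocyte marker probes (miR-143 and the miR-449 family) was above the limit in them. The oligodendrocyte miRNA miR-338-3p reached 547 and 517 in oligodendrocytes. Of 3 such probes 2 were above the limit there, and miR-338-5p (41 and 36) was not. In microglia miR-342-3p reached 900 and 993, and 4 and 5 of 6 haematopoietic (blood-lineage) probes were above the limit. Of that list, miR-223 was under it in both (37 and 24). miR-142-5p (236 and 230) and miR-155 (312 and 535) were lower there than in cortical neurons (367 and 745, 911 and 1415). The main results that rest on the neurons are also given without primary hippocampal neurons 1, or without it and primary cortical neurons 2.

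Most of the cluster was not measurable above background in any neural library. Of the 55 members, 37 were above the limit in none of the 12 neural libraries, and 18 in at least 1. The matching count over all mouse miRNAs was not taken, so these counts do not set the cluster apart from other miRNAs. The median member lay close to the median viral probe in most neural libraries, for example at 24 against 24 in adult astrocytes 1 and 42 against 42 in primary cortical neurons 1. It was higher in primary hippocampal neurons 1 (94 against 16), where the median of all mouse miRNAs was also 94, and in primary hippocampal neurons 2 (37 against 25), where that median was 30. The highest number of members above the limit was in primary hippocampal neurons 2, with 16 of 55 (29.1%, against 22.1% of all mouse miRNAs). Primary cortical neurons had 6 and 7 members above it (10.9% and 12.7%, against 9.01% and 11.5% of all mouse miRNAs), and adult oligodendrocytes 8 and 6 (14.5% and 10.9%, against 12.5% and 12.4%). Red pulp macrophages had 6 and 5 (10.9% and 9.09%, against 6.71% and 7.77%). In these 3 cell types the share of members lay between slightly below and moderately above that of all mouse miRNAs. Adult astrocytes had 3 and 4 (5.45% and 7.27%, against 12.5% and 13.8%) and microglia 1 and 2 (1.82% and 3.64%, against 11.7% and 11.1%), below that of all mouse miRNAs in each library. In primary hippocampal neurons 1 no member passed, where the limit was highest and 3.18% of all mouse miRNAs did.

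**Figure D1:**
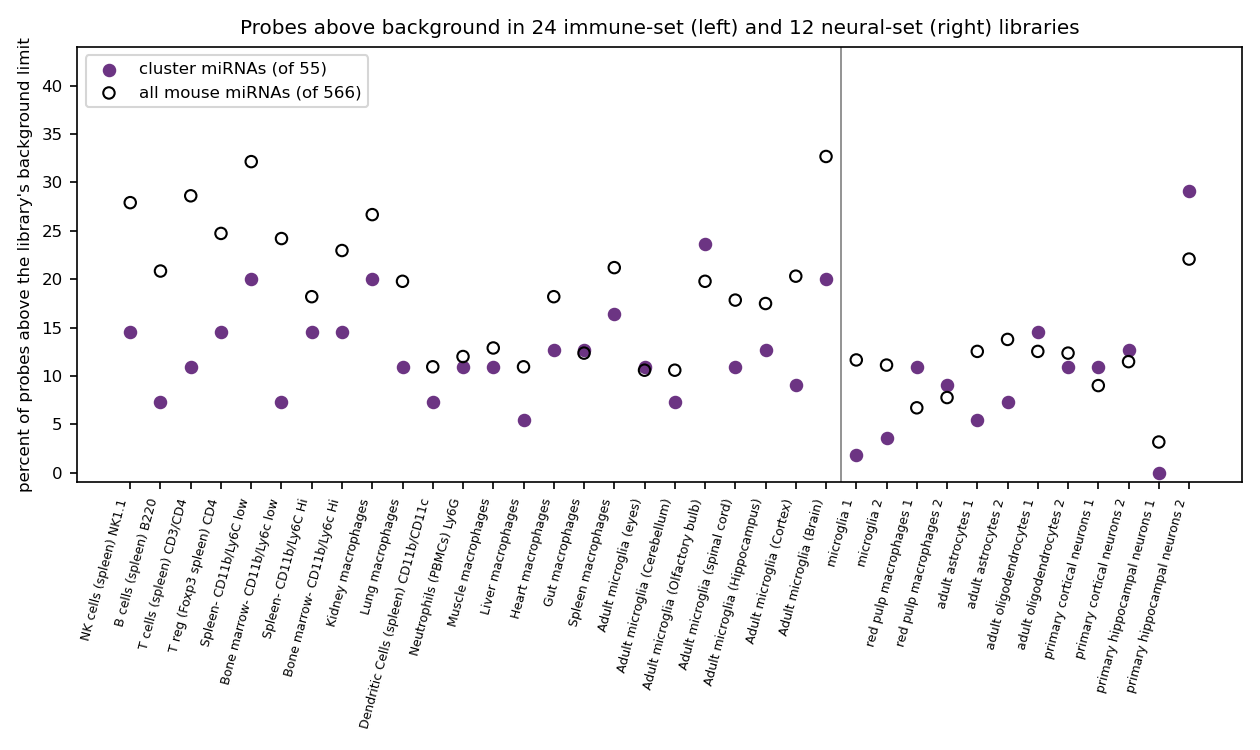
Percent of probes above the library's background limit (vertical axis) in each of the 36 libraries (horizontal axis), for the 55 cluster miRNAs (filled) and all 566 mouse miRNAs (open). The grey line parts the immune set (left) from the neural set (right). Primary hippocampal neurons 2 lie highest for the cluster, at 29.1%, and microglia 1 are at 1.82%.

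miR-376a had the highest mean of the members over the 4 neuron libraries (909), and was the member furthest above background in 2 of them and in both oligodendrocyte libraries. In primary cortical neurons 2 miR-543 was higher (1057), and in primary hippocampal neurons 1 miR-668 and miR-370 were (219 each), under the limit there. Its score was 1724 and 283 in primary cortical neurons 1 and 2, 141 and 1489 in primary hippocampal neurons 1 and 2, 500 and 806 in oligodendrocytes, 161 and 111 in astrocytes, 227 and 150 in red pulp macrophages, and 62 and 76 in microglia. Microglia 1 lay under its limit of 74.2 and microglia 2 just above its limit of 75.1, while both oligodendrocyte libraries were 6.16 and 10.5 times above theirs. The neurons overlapped every other group except microglia. In such bulk samples fewer cells of a type and less RNA per cell cannot be told apart. The 2 neuron libraries with miR-124 at background were also the 2 lowest neuron libraries for miR-376a. The summed score of the neuronal marker probes was 572 to 2392 in neurons, 1640 to 3323 in astrocytes, 477 to 507 in oligodendrocytes and 389 to 463 in microglia. In astrocytes most of that sum was 1 probe, miR-9, at 2849 and 1011, and miR-9 was also at 905 in primary hippocampal neurons 2. Neurons against microglia was the difference in miR-376a that passed, by 2.89 ± 0.74 (log2, SE, limma, adjusted p = 0.032). The call was lost without any 1 of the microglia, red pulp macrophage or astrocyte libraries or primary cortical neurons 1 (adjusted p from 0.058 to 0.43). Against astrocytes the difference was 2.02 ± 0.74 (adjusted p = 0.25), and against oligodendrocytes -0.15 ± 0.74 (adjusted p = 0.96).

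**Figure D2:**
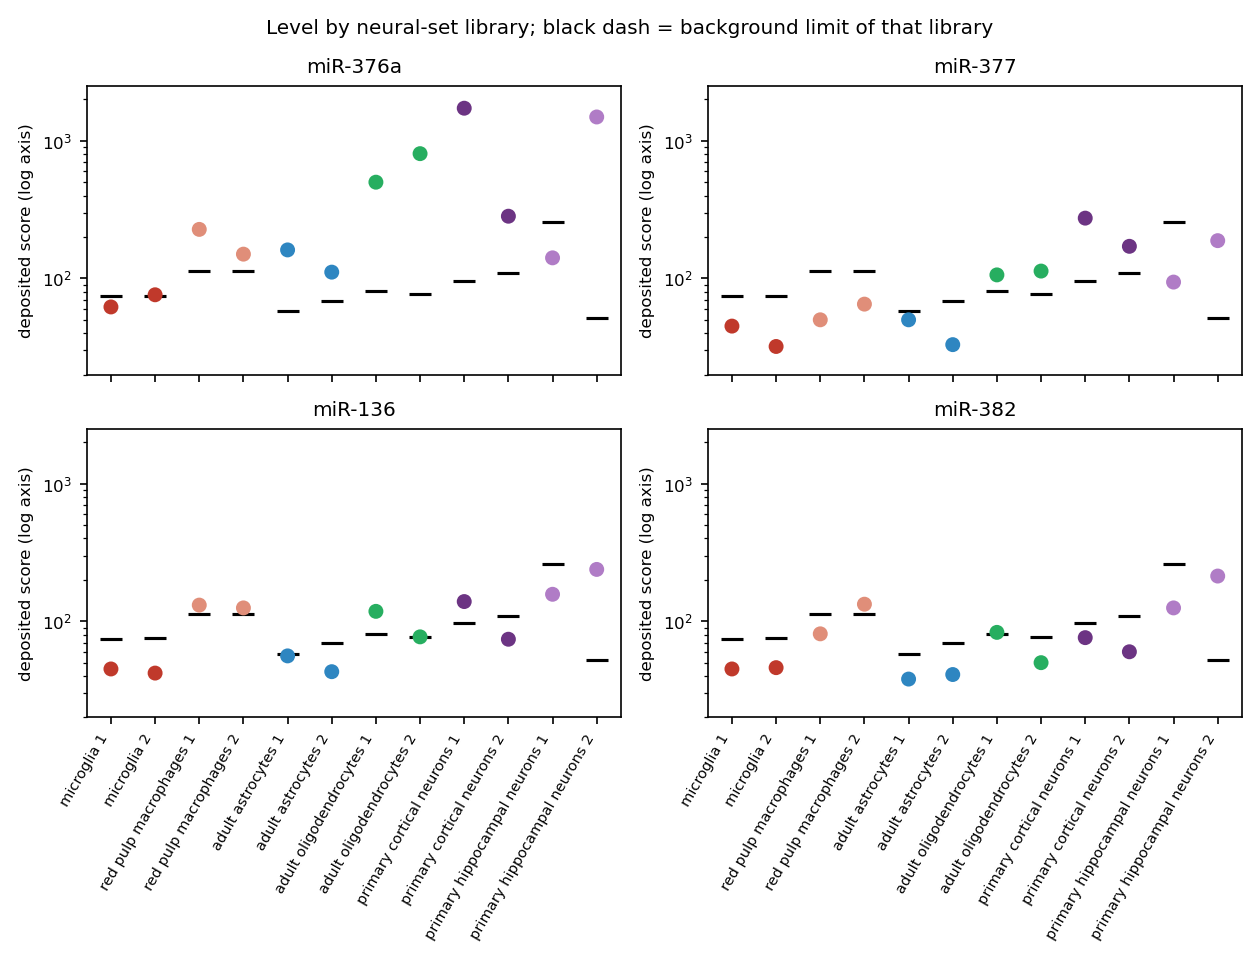
Deposited score (log axis) of miR-376a, miR-377, miR-136 and miR-382 in each of the 12 neural-set libraries. Points are single libraries, coloured by cell type, and black dashes are each library's background limit. miR-376a reaches 1724 and 1489 in a cortical and a hippocampal neuron library and 500 and 806 in oligodendrocytes, and lies close to the limit in microglia.

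The placement of neurons against oligodendrocytes depended on which neuron libraries were used. Without primary hippocampal neurons 1 the miR-376a difference turned to 0.68 ± 0.44 (limma, adjusted p = 0.83). Without both libraries under 10000 counts (primary hippocampal neurons 1 and primary cortical neurons 2, a choice made after seeing the data) it was 1.32 ± 0.33, with neurons higher. That fit leaves 1 library in each neuron group. The libraries left out were also the lowest neuron libraries for miR-376a (141 and 283, against 1489 and 1724 in those kept). Leaving them out raises the neuron mean by itself, so this fit cannot decide the order of neurons and oligodendrocytes. In the same fit neurons exceeded astrocytes by 3.49 ± 0.33 and microglia by 4.36 ± 0.33, and the same limit holds for the size of these differences. A lone library is then assumed to vary like the pairs of the other groups. Oligodendrocytes against microglia did not pass over all libraries (3.03 ± 0.86, adjusted p = 0.090, limma), but did without primary hippocampal neurons 1 (adjusted p = 2.1e-06, limma), with no change in the difference. The difference of astrocytes minus oligodendrocytes was -2.17 (log2) in both fits (SE 0.86, then 0.47), with an adjusted p of 0.80 over all libraries and 0.0013 without primary hippocampal neurons 1 (limma). In oligodendrocytes miR-124 was below the limit in both libraries (9 and 34), but other neuronal probes were above it: miR-9 (86) and miR-129-5p (83) in adult oligodendrocytes 1 and miR-132 (126) in adult oligodendrocytes 2. Their part in the level of miR-376a was not tested.

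miR-376b and miR-376c, which neighbour miR-376a in the distal section, did not follow it. The miR-376b score lay between 23 and 65 in all 12 neural libraries, under the limit in each. The miR-376c score lay between 22 and 59 in 11 libraries and at 188 in primary hippocampal neurons 1, under its limit there too.

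miR-377, from the same section, was the other member that passed in the neural set. Its score was 274 and 171 in cortical neurons, 94 and 188 in hippocampal neurons, 106 and 113 in oligodendrocytes, 50 and 33 in astrocytes, 50 and 65 in red pulp macrophages, and 45 and 32 in microglia. All 4 neuron libraries were above both astrocyte and both microglia libraries, but the lowest neuron library was below both oligodendrocyte libraries, and it was under its own background limit. Neurons exceeded microglia by 1.91 ± 0.44 (log2, SE, limma, adjusted p = 0.016) and astrocytes by 1.83 ± 0.44 (limma, adjusted p = 0.037). Against oligodendrocytes the difference was 0.59 ± 0.44 (limma, adjusted p = 0.78). The call against microglia was lost without either microglia library or primary cortical neurons 1 (adjusted p from 0.095 to 0.54), and that against astrocytes without any 1 library outside the hippocampal neurons (adjusted p from 0.069 to 0.47). Without primary hippocampal neurons 1 the differences were 2.14 ± 0.33 and 2.06 ± 0.33 (limma, adjusted p = 1.5e-06 and 5.8e-06).

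miR-136, whose hairpin lies in the proximal section opposite Rtl1, was at 139 and 74 in cortical neurons, 157 and 238 in hippocampal neurons, 118 and 77 in oligodendrocytes, 56 and 43 in astrocytes, 131 and 125 in red pulp macrophages, and 45 and 42 in microglia. The red pulp macrophages, which are not neural cells, overlapped the neurons. Neurons differed from microglia by 1.50 ± 0.44 (log2, SE, limma, adjusted p = 0.094) and from astrocytes by 1.35 ± 0.44 (limma, adjusted p = 0.18). Without primary hippocampal neurons 1 both passed (1.64 ± 0.33, adjusted p = 0.00025, and 1.49 ± 0.33, adjusted p = 0.0020, limma). miR-382, from the distal section, was at 76 and 60 in cortical neurons, 125 and 213 in hippocampal neurons, 83 and 50 in oligodendrocytes, 38 and 41 in astrocytes, 81 and 133 in red pulp macrophages, and 45 and 46 in microglia. Among neurons it was above the limit only in primary hippocampal neurons 2. Its difference between neurons and astrocytes was 1.23 ± 0.43 (limma, adjusted p = 0.23), and 1.41 ± 0.33 (limma, adjusted p = 0.0038) without primary hippocampal neurons 1.

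**Figure D3:**
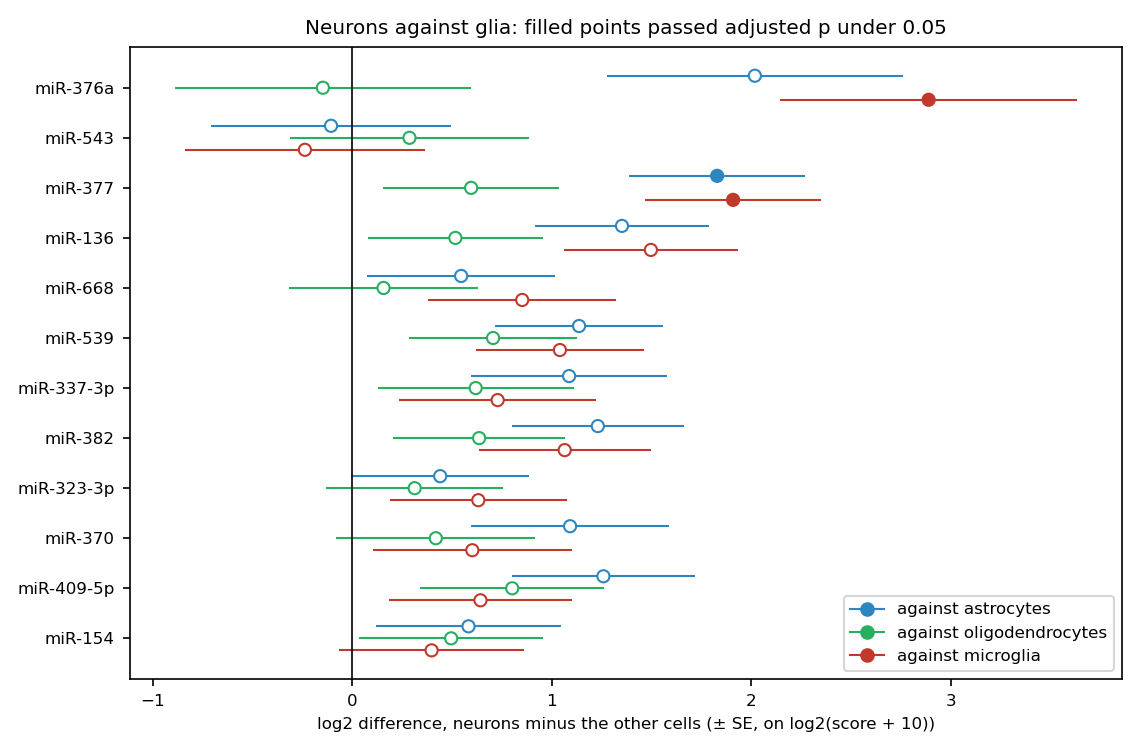
Log2 difference (neurons minus the other cell type, ± SE, on log2(score + 10)) for the 12 members with the highest mean over the neuron libraries, listed from highest to lowest. Colours give the comparison, and filled points passed an adjusted p under 0.05. The filled points are miR-376a against microglia (2.89) and miR-377 against microglia (1.91) and astrocytes (1.83).

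Over the cluster, calls were few, and the shares of all miRNAs are given beside them. Differences were taken on log2(score + 10) with limma over all 566 mouse miRNAs. In neurons against microglia 2 of 55 members passed, both higher in neurons, and 2.3% of all tested miRNAs passed (2 higher and 11 lower). Those 2 members were thus the only miRNAs that passed as higher in neurons there. In neurons against astrocytes 1 of 55 members passed, where 1.06% of all tested miRNAs did (1 higher, miR-377 itself, and 5 lower). In neurons against oligodendrocytes 0 of 55 passed, where 0.177% of all did. An unadjusted p under 0.05 (limma) was reached by 21.8% of members and 14.1% of all miRNAs against astrocytes. Against microglia these shares were 16.4% and 8.48%. Against oligodendrocytes they were 3.64% (2 members) and 5.3%. With primary hippocampal neurons 1 left out, 5 members passed against microglia (5.65% of all miRNAs), 5 against astrocytes (3.89%) and 0 against oligodendrocytes (1.24%). The median difference of the members was 0.55 against 0.26 for all miRNAs in neurons minus microglia, 0.60 against 0.40 in neurons minus astrocytes, and 0.37 against 0.25 in neurons minus oligodendrocytes. Without the libraries under 10000 counts these pairs were 0.19 against 0.01, 0.25 against 0.16, and 0.09 against 0.01. The shift over all miRNAs was thus smaller without those libraries, and the members' median lay above it in each case. These medians rest largely on background scores, since 37 of 55 members were above the limit in no neural library. The gap between members and all miRNAs was not tested.

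Between glia, none of the 55 members passed with limma. Astrocytes against oligodendrocytes had 0 called members (0.0% of all miRNAs called) and 2 at an unadjusted p under 0.05 (3.64%, against 3.53% of all). Astrocytes against microglia had 0 called members (1.41% of all called) and 0 at an unadjusted p under 0.05 (4.24% of all). Oligodendrocytes against microglia had 0 called members (1.41% of all called) and 2 at an unadjusted p under 0.05, miR-376a and miR-377 (3.64%, against 4.06% of all). Without primary hippocampal neurons 1, which enters the shared estimate of the spread, miR-376a and miR-377 passed in oligodendrocytes against microglia and against astrocytes, higher in oligodendrocytes in both (3.53% and 3.00% of all miRNAs called).

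Between cortical and hippocampal neurons no member passed over both libraries of each (0 of 55 with limma, 0.0% of all called), where the 2 hippocampal libraries differed widely. An unadjusted p under 0.05 (limma) was reached by 9 members (16.4%, against 12.5% of all miRNAs). With primary hippocampal neurons 1 left out 4 members passed, all lower in cortical neurons (miR-382, miR-433, miR-434-3p and miR-487b, with 5.83% of all miRNAs called). In the fit that left out primary hippocampal neurons 2, 22 members passed, where 44.9% of all miRNAs did. Each of these fits leaves 1 hippocampal library. Above the limit in primary hippocampal neurons 2 and in no other neural library were miR-433, miR-434-3p, miR-487b, miR-495, miR-369-3p, miR-409-5p and miR-127. The first 3 were picked after their values were seen, so their tests follow from that choice and add no support. miR-369-3p (58) and miR-127 (53) exceeded both cortical libraries (24 and 45 for each). miR-495 (60, against 48 and 82) and miR-409-5p (53, against 45 and 97) did not. miR-433, from the proximal section, was at 111 in primary hippocampal neurons 2, 94 in primary hippocampal neurons 1 and 52 and 7 in cortical neurons. miR-434-3p, from the same section, was at 104, 94, 38 and 7 in that order, and miR-487b, from the distal section, at 83, 78, 17 and 7. The cortical values were under the limit throughout, as were all of those in primary hippocampal neurons 1. In that library the median of all mouse miRNAs was 94. The fit without primary hippocampal neurons 2 thus rests on hippocampal scores at or under that median. The differences, cortical minus hippocampal, were -1.79 ± 0.56, -1.93 ± 0.50 and -2.08 ± 0.49 (log2, SE, limma, adjusted p = 0.18, 0.15 and 0.15). All 3 passed without primary hippocampal neurons 1 (limma, adjusted p = 0.015, 0.0065 and 0.0030), with -1.90 ± 0.52 for miR-433 and -2.12 ± 0.47 for miR-487b, and they passed without primary hippocampal neurons 2 as well (limma, adjusted p = 0.010, 0.0033 and 0.0012). Without the libraries under 10000 counts miR-487b passed (-1.78 ± 0.49, limma, adjusted p = 0.020) and the other two did not (adjusted p = 0.27 for miR-433 and 0.16 for miR-434-3p).

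The signal of primary hippocampal neurons 2 was spread along the cluster. Of the members above its limit, 4 of 13 were proximal, 0 of 2 were in the middle and 12 of 37 were distal. The highest over the limit were miR-376a (28.7 times), miR-543 (5.63), miR-136 (4.59), miR-382 (4.10), miR-377 (3.62), miR-433 (2.14) and miR-434-3p (2.00). The neuronal markers were also most often detected in this library, and their part in the level of the members was not tested. Over all 12 neural libraries, 5 of 13 proximal, 1 of 2 middle and 12 of 37 distal members were above the limit in at least 1.

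**Figure D4:**
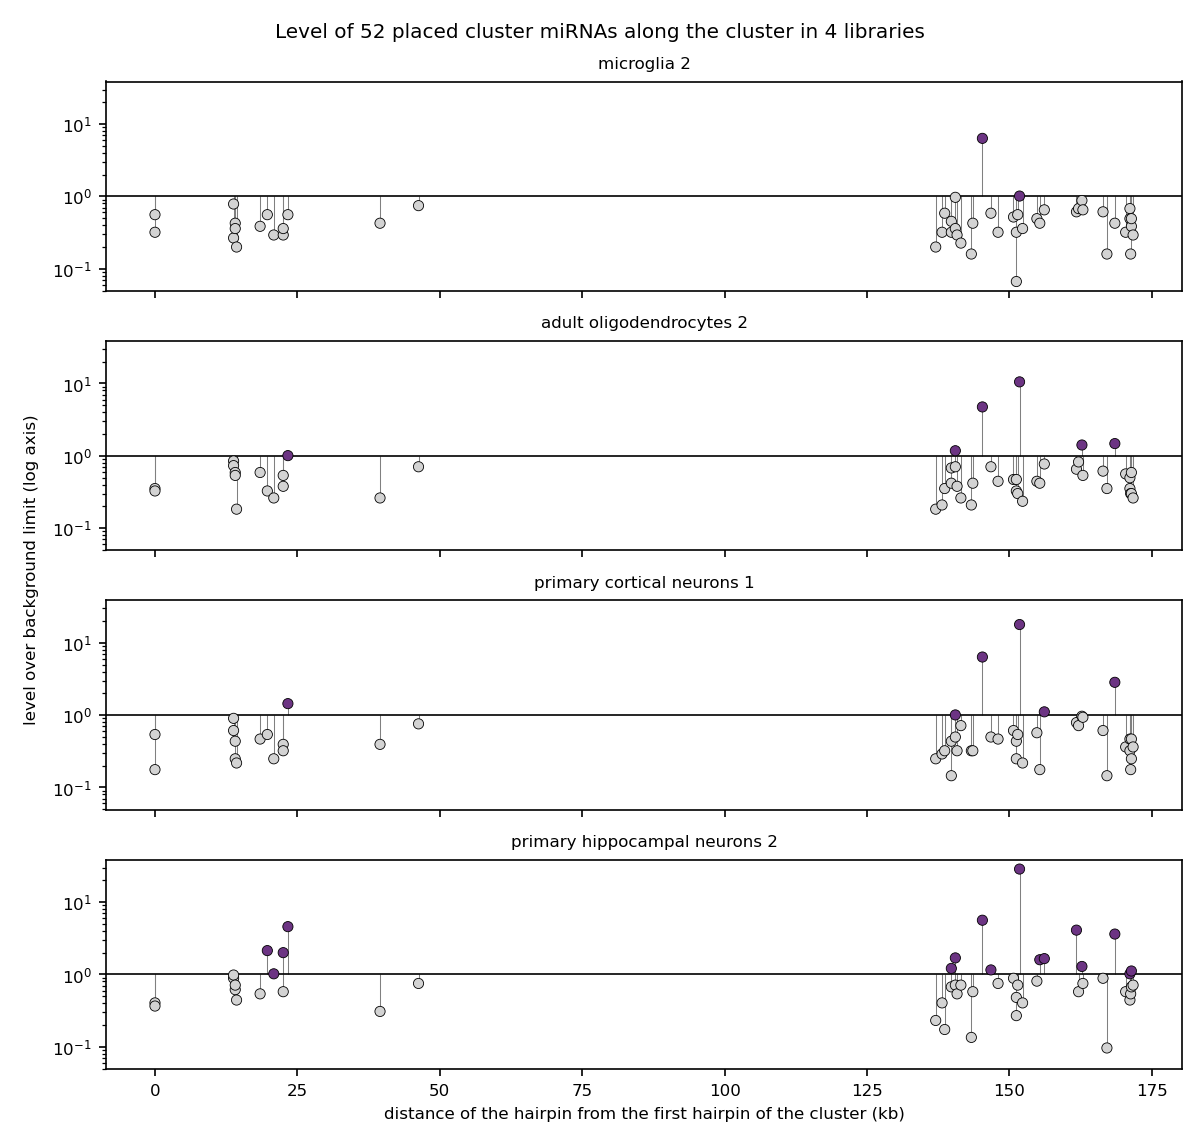
Level divided by the library's background limit (log axis) for the 52 placed members, against the distance of the hairpin from the first hairpin of the cluster (kb), in microglia 2, adult oligodendrocytes 2, a cortical neuron library (1) and a hippocampal one (2). Filled points lie above the limit. Primary hippocampal neurons 2 have 16 members above it, in the proximal and the distal section, and microglia 2 have 2.

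The best known members were above the limit in few libraries or in none. miR-134, the dendritic miRNA, scored between 30 and 110 in the neural libraries and was above the limit in none of the 36. miR-379, the first hairpin of the distal section, scored between 10 and 54 and was above the limit in none. miR-410, the last hairpin, scored between 14 and 49 and passed in 1 immune library only. miR-127, which lies opposite Rtl1, scored between 16 and 58 and passed only in primary hippocampal neurons 2 (53). miR-485 scored between 39 and 110, with no neural library above the limit and 3 immune ones.

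Of the other members with the highest neuron means, miR-668 (mean 130), miR-337-3p (120), miR-323-3p (116), miR-370 (103), miR-409-5p (88.0) and miR-154 (87.5) had their highest neuron score in primary hippocampal neurons 1, at 219, 204, 188, 219, 157 and 141 in that order, all under its limit of 259. miR-539 scored 107 and 208 in cortical neurons, 94 and 86 in hippocampal neurons and 46 to 89 in the other neural libraries. Its difference between neurons and astrocytes was 1.14 (log2), without passing. In 10 hairpins each arm had its own probe. miR-323-3p was above the limit in 7 neural libraries and miR-323-5p in 0, miR-380-3p in 3 and miR-380-5p in 0, and miR-434-3p in 1 and miR-434-5p in 0. miR-337-3p and miR-409-5p each passed in 1 neural library and their partner arms in 0.

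miR-543 was above the limit in 35 of the 36 libraries, the most of any member, yet its counts hardly followed the cells. In the immune set its recovered count ran from 30 to 165 (5.5-fold) while library totals ran over 43.5-fold, and only 2 of the 32 mouse miRNAs with a median count of at least 20 had a narrower range. In the 12 shallower immune libraries its median count was 109.5 and its median value 509, against 99.5 and 84.7 in the 12 deeper ones. Its neural score was 460 and 477 in microglia, 735 and 708 in red pulp macrophages, 386 and 472 in astrocytes, 287 and 363 in oligodendrocytes, 613 and 1057 in cortical neurons, and 125 and 292 in hippocampal neurons. In primary hippocampal neurons 1 it had 8 counts, and in the other 11 libraries 97 to 195. No contrast called it over all libraries. Against lymphocytes, immune-set microglia differed by 1.48 ± 0.66 (log2, SE, limma, adjusted p = 0.091), and this passed without cortex or brain microglia (lowest adjusted p = 0.026, limma). The cause of the steady count was not tested.

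**Figure D5:**
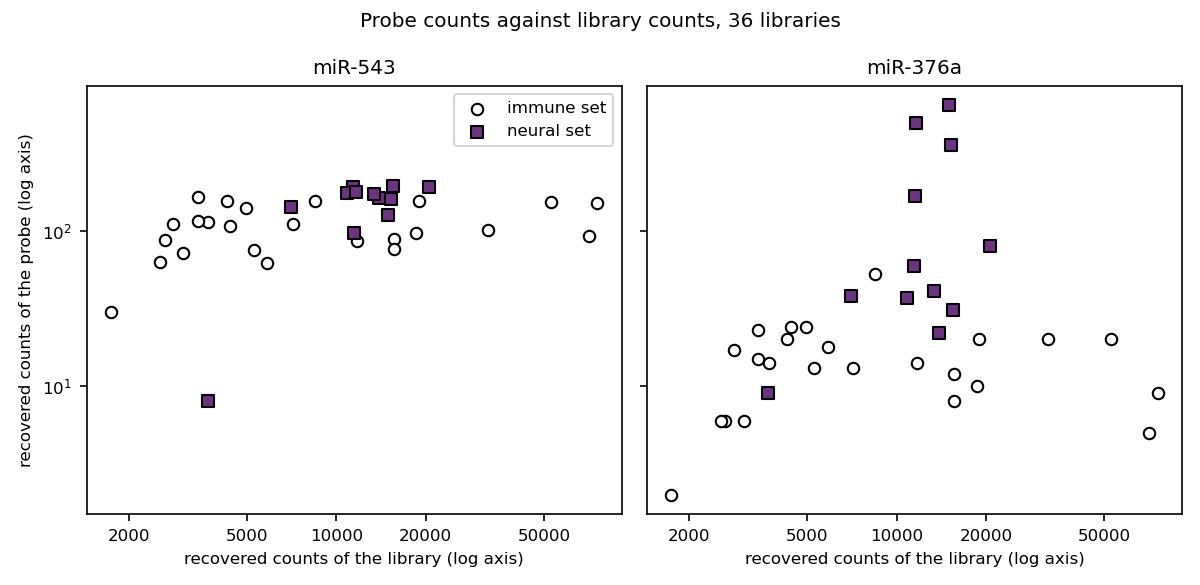
Recovered counts of the miR-543 (left) and miR-376a (right) probes against the total recovered counts of each of the 36 libraries, both on log axes. Circles are immune-set and squares neural-set libraries. miR-543 stays between 30 and 195 counts in every library but primary hippocampal neurons 1 (8), and miR-376a reaches 643 counts in primary hippocampal neurons 2.

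In the immune set 37 of 55 members were above the limit in at least 1 of 24 libraries, and 4 in at least 12 of them: miR-543, miR-376a, miR-377 and miR-154. Here too the matching count over all mouse miRNAs was not taken, and with more libraries a probe near background has more chances to pass. Between 3 (liver macrophages) and 13 (olfactory bulb microglia) members were above the limit per library, or 5.45% to 23.6%, against 10.6% to 32.7% of all mouse miRNAs. Only 8 of the 55 members reached a value of 20 in at least 4 of the 22 libraries compared and were tested, and they may have passed this minimum through the group where they are high. Of the 8, only miR-543 reached 20 in any lymphocyte library, so the others passed it through other cells. They were miR-136, miR-323-3p, miR-376a, miR-377, miR-380-3p, miR-539, miR-543 and miR-668. Counts of these members were small, with a median of 14 for miR-376a and 8 for miR-377 over the 24 libraries.

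Against lymphocytes, microglia were higher in 3 of the 8 tested members (22.0% of all 132 tested miRNAs called). None of the 3 reached the minimum of 20 in a lymphocyte library, which limits what these calls can show. miR-136 was at 7.57 to 64.2 in the 7 microglia libraries (median 20.3) and at 3.63, 2.19, 1.24 and 3.67 in NK, B, T and T reg cells, without overlap. Its difference was 1.39 ± 0.40 (log2, SE, limma, adjusted p = 0.0094). miR-377 was at 7.57 to 90.6 in microglia (median 20.3) and at 2.72, 1.22, 1.24 and 11.9 in the lymphocytes, so T reg overlapped microglia. Its difference was 1.43 ± 0.45 (limma, adjusted p = 0.017), and it did not pass without B cells, T cells or eye microglia (adjusted p from 0.065 to 0.079). miR-539 was at 4.37 to 34.8 in microglia (median 19.5) and at 5.44, 2.19, 2.07 and 4.59 in the lymphocytes. Its difference was 0.98 ± 0.36 (limma, adjusted p = 0.043), and it was lost without any of the 4 lymphocyte libraries or any 1 of 5 microglia libraries (eyes, cerebellum, olfactory bulb, spinal cord and hippocampus; adjusted p from 0.051 to 0.12). miR-376a lay just outside the threshold (1.24 ± 0.48, limma, adjusted p = 0.052), and passed without cortex or brain microglia or T reg cells. It also passed without any 1 of kidney, lung, liver, gut or spleen macrophages, which are in neither compared group and enter only the shared spread. A pseudocount of 1 or scaling to the 100 highest miRNAs made it pass too.

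Depth moved with these values. Lymphocyte totals were 15598 to 75642 counts and microglia totals 2555 to 32277, so 1 count stood for a larger value in most microglia libraries. For miR-136 the recovered counts were 4, 9, 3 and 4 in the lymphocytes and 6, 15, 4, 2, 18, 17 and 31 in microglia (eyes first, then cerebellum, olfactory bulb and spinal cord, then hippocampus, cortex and brain). In the 12 shallower immune libraries miR-376a had a median of 14.5 counts and a value of 60.2, and in the 12 deeper ones 13.5 counts and a value of 11.6. Without libraries under 5000 counts miR-136 was the only 1 of the 8 members still called against lymphocytes. Of the 11 neuronal marker probes, 0 to 4 were above the limit in microglia and 1 to 3 in lymphocytes. Their summed value was 24.9 to 153 in microglia and 16.3 to 55.1 in lymphocytes. The highest sums, in eye (153) and cerebellum (141) microglia, came with 0 probes above the limit. Microglia labelled brain had the most probes above it (4) and the lowest microglia sum (24.9). The part of depth or of the neuronal markers in the 3 calls was not tested further.

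Against organ macrophages 1 of the 8 members passed (12.9% of all tested called). miR-380-3p was lower in microglia, at 1.75 to 35.5 (median 8.55), than in macrophages, at 3.82 to 92.6 (median 44.8), with a difference of -1.10 ± 0.35 (log2, SE, limma, adjusted p = 0.025). The groups overlapped, and the spleen (92.6) and kidney (65.4) libraries were highest. Among the compared libraries outside the macrophages, only olfactory bulb microglia (35.5) were above 20. The member thus passed the minimum for testing through the macrophages, where it is high, which limits what this call can show. Without any 1 of kidney, muscle or spleen macrophages, or of hippocampus, cortex or brain microglia, the adjusted p was 0.051 to 0.082. The difference of miR-376a was -0.57 ± 0.41 (limma, adjusted p = 0.37), from 8.75 to 103 in microglia (median 30.4) and 17.1 to 177 in macrophages (median 61.7). Against CD11b/Ly6C cells 0 of 8 members passed with limma (15.2% of all called), and edgeR on the recovered counts also called 0. With limma 2 members had an unadjusted p under 0.05 (25.0%, against 27.3% of all tested). In the immune set edgeR called the same members as limma in the other comparisons too, miR-380-3p against organ macrophages (18.9% of all called) and miR-136, miR-377 and miR-539 against lymphocytes (27.3% of all called). It tested the same filtered members, so the limit set by the minimum holds for its calls as well. The neural set was not tested with edgeR. Among the CD11b/Ly6C cells, values of miR-376a were 14.5 and 35.0 in spleen Ly6C low and Hi cells and 2.06 and 12.7 in bone marrow Ly6C low and Hi cells. In the single dendritic cell and neutrophil libraries, which were not compared, miR-376a was at 58.7 and 82.7 and miR-377 at 33.5 and 34.1.

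The rule left out 8 further probes of the cluster (such as miR-493, miR-770 and miR-1197), and 8 probes of other imprinted regions (miR-675 of H19, miR-483 of Igf2, miR-296 and miR-298 of Gnas, and miR-335 of Mest) serve as a second list. None of these 16 probes passed in any of the 7 neural contrasts (limma). miR-493 was above the limit in adult astrocytes 2 (81) and primary hippocampal neurons 2 (53), and the rest of the list in no neural library.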

How the data were processed

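The immune-set values are a normalised signal deposited by the authors (barcode counts times 1 factor per library), and the neural-set values are deposited scores (scaled counts rounded to whole numbers). The sources used here do not give the basis of either scaling. Per the labels' protocols, total RNA came from a mirVana extraction. Among the lower values of each library, 100% of immune and 98.7% to 100% of neural values lay at a whole count within a tolerance. For neural values the tolerance was about that of rounding to whole numbers, which is loose where 1 count is worth a small score. Higher values were taken to the nearest count without this check. The sets were scaled apart and were never tested against each other. Here, log2(value + 10) was fitted with limma 3.58.1 (trend, R 4.3.3) over miRNAs above 20 in at least 2 of 12 neural or 4 of 22 immune libraries, which kept all 566 and 132, with Benjamini-Hochberg adjustment. Neurons were the mean of the 2 neuron groups, and all groups of a set shared 1 estimate of the spread. The edgeR alternative (4.0.16) used recovered counts of the same filtered miRNAs. Fits were tested on simulated data. Named members are the 12 highest in neurons, the 6 highest in the immune set, all called members, partner arms, and miR-134, miR-127, miR-379, miR-410 and miR-485. miR-433, miR-434-3p, miR-487b, miR-376b and miR-376c were added after their values were seen. Members and lists were chosen with earlier results of these data known. Same-numbered libraries did not deviate together (correlations from -0.25 to 0.08 over 15 pairs of groups). No pair of libraries of a group was alike within counting error (closest: red pulp macrophages, chi-square p = 0.0246). The custom gene panel and the array were not used here. Depth was 1741 to 75642 counts per library, and floors and limits cover counting error only.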

Additional observations from a re-analysis of the deposited data

Results flagged for a closer look

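A library far from the others of its group was looked for in 7 members and in the summed level of the cluster, in 32 groups of 4 to 7 immune-set libraries, and 2 were found. Chance alone flags about 1 in 20 groups. miR-376a reached 176.53 in gut macrophages, where the next of the 7 macrophage libraries (muscle) had 84.0. The recovered counts of this probe were 23 in gut and 15 in muscle, close to the 24 of spleen macrophages. miR-377 reached 11.93 in T reg cells, where the next of the 4 lymphocyte libraries (NK cells) had 2.72. The recovered counts were 13 and 3.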

How the results depend on the processing

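Depth and the spread of the hippocampal pair limit these results: most members had few counts, and calls came and went with single libraries. Called members, with 1 library left out at a time, ranged from 0 to 31 in neurons against astrocytes (1 over all libraries), 0 to 16 against oligodendrocytes (0) and 0 to 23 against microglia (2), from 0 to 2 in astrocytes against oligodendrocytes (0), 0 in astrocytes against microglia (0), 0 to 2 in oligodendrocytes against microglia (0) and 0 to 22 in cortical against hippocampal neurons (0), from 0 to 1 in microglia against organ macrophages (1), 0 against CD11b/Ly6C cells (0) and 1 to 5 against lymphocytes (3). The upper ends of 31, 16, 23 and 22 came without primary hippocampal neurons 2, when primary hippocampal neurons 1 alone stood for its group, and 48.2%, 30.9%, 36.4% and 44.9% of all 566 miRNAs were called in those fits. Without primary hippocampal neurons 1 the same 4 counts were 5, 0, 5 and 4 (3.89%, 1.24%, 5.65% and 5.83% of all).

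Without the libraries under 10000 counts, a setting chosen after seeing the data, the counts were 6, 1 and 7 for neurons against astrocytes, oligodendrocytes and microglia (4.24%, 2.83% and 6.18% of all called), 2 and 4 for oligodendrocytes against astrocytes and microglia (3.53% and 5.12%), and 1 for cortical against hippocampal neurons (3.18%). A pseudocount of 50 gave 0 in neurons against astrocytes, 1 in neurons against microglia and 0 in microglia against lymphocytes. A pseudocount of 1, no minimum, a minimum of 100 and quantile normalisation each gave 0 in microglia against organ macrophages. A minimum of 100 gave 3 in neurons against astrocytes, 1 in oligodendrocytes against microglia and 0 in microglia against lymphocytes, where 1 member was then tested. Quantile normalisation gave 0 in neurons against astrocytes, in neurons against microglia and in microglia against lymphocytes. Scaling to the 100 highest miRNAs gave 1 in oligodendrocytes against microglia. Without libraries under 5000 counts, 1 member passed against lymphocytes. The replicate block gave 0 in neurons against astrocytes and 1 in neurons against microglia, and changed no other call. Libraries share only a number, so it is no paired design. Raising values to the background gave differences with no test.

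The miR-376a difference between neurons and oligodendrocytes turned positive when values were raised to background (0.06), without adult oligodendrocytes 2 (0.19), primary cortical neurons 2 (0.49) or primary hippocampal neurons 1 (0.68), and without the libraries under 10000 counts (1.32). The last of these settings leaves out the lowest neuron libraries for miR-376a. Without primary hippocampal neurons 2 the difference was -0.98. Between cortical and hippocampal neurons it turned to -0.70 without primary cortical neurons 1 and -1.07 without primary hippocampal neurons 1, and was 2.24 without primary hippocampal neurons 2 (limma, adjusted p = 0.0019). The miR-543 difference of microglia against CD11b/Ly6C cells turned to -0.10 without libraries under 5000 counts. The cause of these changes was not tested. Signs were followed only for the called members and some chosen others, and no further difference among these changed sign. With a stricter background limit (mean plus 3 SD), 0 to 11 members were above it per library.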
